A study of Mus musculus with 4 samples.

Results

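The genes described here are 28 genes of cholesterol synthesis and of its control by SREBP2, taken by name from a list of pathway members and found among the 46603 gene identifiers counted in the livers. The list holds 8 genes of the mevalonate and isoprenoid steps, 11 genes of the steps from squalene to cholesterol, 4 genes of the SREBP2 machinery and 5 genes that carry, esterify, export or regulate the uptake of sterol. Their levels were measured by RNA-seq of whole liver from 4 male mice, 2 per group.

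All 4 mice were HuR flox/flox on the C57BL/6J background. HuR, encoded by Elavl1, is an RNA-binding protein that regulates the stability and translation of its target transcripts. Control mice (mice 1 and 2) received AAV8-TBGP-GFP by tail vein, and HuR hKO mice (mice 3 and 4) received AAV8-TBGP-Cre, in which the thyroxine-binding globulin promoter restricts the recombinase to hepatocytes, so the other cells of the liver keep the gene. Both groups ate WDSW, a Western diet with 42% of its calories from fat and 0.1% cholesterol, and drank water with 23.1 g/L fructose and 18.9 g/L glucose, for 4 weeks. Age was matched between groups, and its value is not given in the sources used here. A mouse without the vector or on another diet is not among these libraries. Levels came from whole liver, where fewer cells of a type and less RNA per cell cannot be told apart.

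Cholesterol is made in the endoplasmic reticulum and cytosol from acetyl-CoA, through mevalonate, farnesyl diphosphate, squalene and lanosterol. When sterol in the endoplasmic reticulum is low, SCAP escorts the precursor of SREBP2 to the Golgi, where proteases release the transcription factor, which then activates most of the synthesis enzymes. When sterol is high, INSIG proteins hold SCAP and SREBP2 back. Oxysterols at the same time activate LXR, which induces export through ABCA1, so genes of synthesis and genes of export usually respond to sterol in opposite directions. In liver, a diet rich in cholesterol is known to hold SREBP2 targets low. SREBP1, the related factor encoded by Srebf1, mainly drives fatty acid synthesis in hepatocytes.

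SREBP2 binds sterol regulatory elements close to start sites, often with NF-Y, whose motif is CCAAT, and Sp1, whose motif is GGGCGG. Promoter windows of 300 bases from RefSeq (build GRCm38.p6) matched 22 of the 28 genes, in 28 windows, and both strands were searched. The letters TCACNCCAC, a sterol regulatory element, stood in 1 of the 22 genes, Hmgcs1, against 1.44% of all 27025 genes with a window. By windows, they stood in 3.57% of those found for the 22 genes, against 1.24% of all 32851 windows. The shorter form CACNCCAC, which lies inside the longer one, stood in 3 of the 22 genes (Acat2, Hmgcs1 and Insig1), against 7.12% of all genes. It stood in 10.7% of their windows, against 6.24% of all windows. CCAAT stood in 19 of the 22 genes, against 41.1% of all genes, and in 67.9% of their windows, against 37.4% of all windows. GGGCGG stood in 20 of the 22 genes, against 38.2% of all genes, and in 82.1% of their windows, against 35.7% of all windows. The E-box CACGTG stood in 6 of the 22 genes, against 8.09% of all genes, and in 25.0% of their windows, against 7.15% of all windows. All genes here means every gene with a window, whether or not it passed the filter on counts. These matches describe letters in the windows and are not evidence of binding.

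The 150 bases before the start site follow for Hmgcs1, Mvd, Sc5d and Abca1. Hmgcs1 held the sterol regulatory element, and Sc5d had the highest CPM of the 28 genes. Mvd had the largest log2 fold change of the 28 genes (1.08), which was -0.33 with the counts of an overlapping gene, Gm20388, added. Abca1 is the gene of export whose level was lower in both libraries labelled HuR hKO. Each stretch is written 5′ to 3′ on the strand of its gene, and capitals mark matches to CACNCCAC or CCAAT on either strand. The Hmgcs1 sequence lies at chr13:119690201-119690350 on the plus strand, and the others lie on the minus strand, Mvd at chr8:122443423-122443572, Sc5d at chr9:42264301-42264450 and Abca1 at chr4:53159896-53160045.
Hmgcs1: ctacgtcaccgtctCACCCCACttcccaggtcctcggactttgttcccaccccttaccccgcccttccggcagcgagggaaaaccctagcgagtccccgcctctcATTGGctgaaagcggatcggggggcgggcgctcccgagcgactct
Mvd: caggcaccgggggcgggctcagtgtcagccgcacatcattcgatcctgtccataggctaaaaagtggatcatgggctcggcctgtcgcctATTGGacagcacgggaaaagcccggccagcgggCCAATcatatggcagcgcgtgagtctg
Sc5d: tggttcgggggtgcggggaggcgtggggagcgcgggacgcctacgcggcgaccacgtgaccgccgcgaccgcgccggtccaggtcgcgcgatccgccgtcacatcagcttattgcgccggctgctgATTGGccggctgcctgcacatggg
Abca1: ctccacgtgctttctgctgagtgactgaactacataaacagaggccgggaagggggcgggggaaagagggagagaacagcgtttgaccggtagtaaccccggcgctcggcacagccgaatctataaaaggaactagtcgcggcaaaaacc
The Hmgcs1 stretch held 1 match to the sterol element and 1 CCAAT, the Mvd stretch held 2 CCAAT motifs and the Sc5d stretch held 1, while the Abca1 stretch held neither.

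The libraries held between 13032095 and 19715577 counted reads, and levels are given as CPM, counts per 1000000 counted reads on library sizes scaled by TMM, a method that corrects for differences in composition. Counts of the 28 genes ran from 25 to 5823 in a library, so each was measured well above the 3 counts taken as the lowest detectable level (0.159 to 0.226 CPM). Elavl1, the targeted gene, did not follow the labels. Its CPM was 28.4 and 25.9 in mice 1 and 2 and 37.7 and 34.4 in mice 3 and 4, a log2 fold change of 0.41 ± 0.14 (SE; adjusted p = 0.545, edgeR's quasi-likelihood test). The counts cover the whole gene, and which part of it the recombinase removes is not given in the sources used here. Elavl1, with 377, 347, 541 and 648 counts in mice 1 to 4, overlaps Ccl25 on the opposite strand by 204 bases. Ccl25 had only 46, 57, 33 and 50 counts in those mice. Mice 3 and 4 are therefore named by their labels throughout, and every direction below is that of the libraries labelled HuR hKO against the libraries labelled Control. Hepatocyte markers summed to between 60920 and 69150 CPM, led by Alb at 40980 to 45370 CPM. The 5 cholangiocyte markers summed to 52.5, 27.6, 39.6 and 49.8 CPM in mice 1 to 4. Spp1, the most abundant, had 31.5, 22.3, 34.8 and 41.9 CPM, while Sox9 was lowest in mouse 1. Krt19, Krt7 and Epcam, named after their values were seen, were highest in mouse 1. Krt19, a keratin of bile duct cells, had 162 counts there against 5, 7 and 34 in mice 2, 3 and 4, and Epcam had 3.61, 1.12, 1.19 and 1.96 CPM in mice 1 to 4. The part of these differences in the levels below was not tested.

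To examine whether the cholesterol synthesis pathway differed between the groups, each gene was tested in a fit over all 13001 genes that passed a filter on low counts, with p-values adjusted over all of them (Benjamini-Hochberg). All 28 genes passed the filter. None of the 28 had an adjusted p under 0.05, with values from 0.435 (Mvd) to 0.997 (Hmgcs1), where 0.0231% of all genes tested passed. At an unadjusted p under 0.05, which 7.43% of all genes tested reached in either direction, 4 of the 28 genes were higher in the libraries labelled HuR hKO (Mvd, Hsd17b7, Fdps and Sqle) and 0 were lower. Of these, Mvd and Sqle also passed the threshold used in the study, a fold change of at least 1.8 with an unadjusted p under 0.05, which 1.21% of all genes tested passed upward. Mvd had a log2 fold change of -0.33, of opposite sign, with the counts of the overlapping gene Gm20388 added (adjusted p = 0.792, edgeR's quasi-likelihood test). Sqle had an unadjusted p of 0.0632 with DESeq2's Wald test, so only Mvd passed the threshold there. The fitted level was higher for 18 genes and lower for 10, where 50.3% of all genes tested were higher, and the median log2 fold change was 0.15, against 0.00 over all genes. The median was not steady: it was 0.06 without mouse 1, 0.05 without mouse 3 and 0.07 without mouse 4. The count of genes higher at an unadjusted p under 0.05 was 7 without mouse 2 and 2 without mouse 4, where 10.7% and 4.18% of all genes tested reached that p in either direction. Over the 4 fits with 1 mouse left out, Mvd stayed under that p in 3, Hsd17b7 in 2, Sqle in 2 and Fdps in 1. The count past the study's threshold was 1 without mouse 1, 1 without mouse 2 and 0 without mouse 4. With no scaling for library size, where the median over all genes was itself 0.31, the median over the 28 genes was 0.47.

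**Figure D1:**
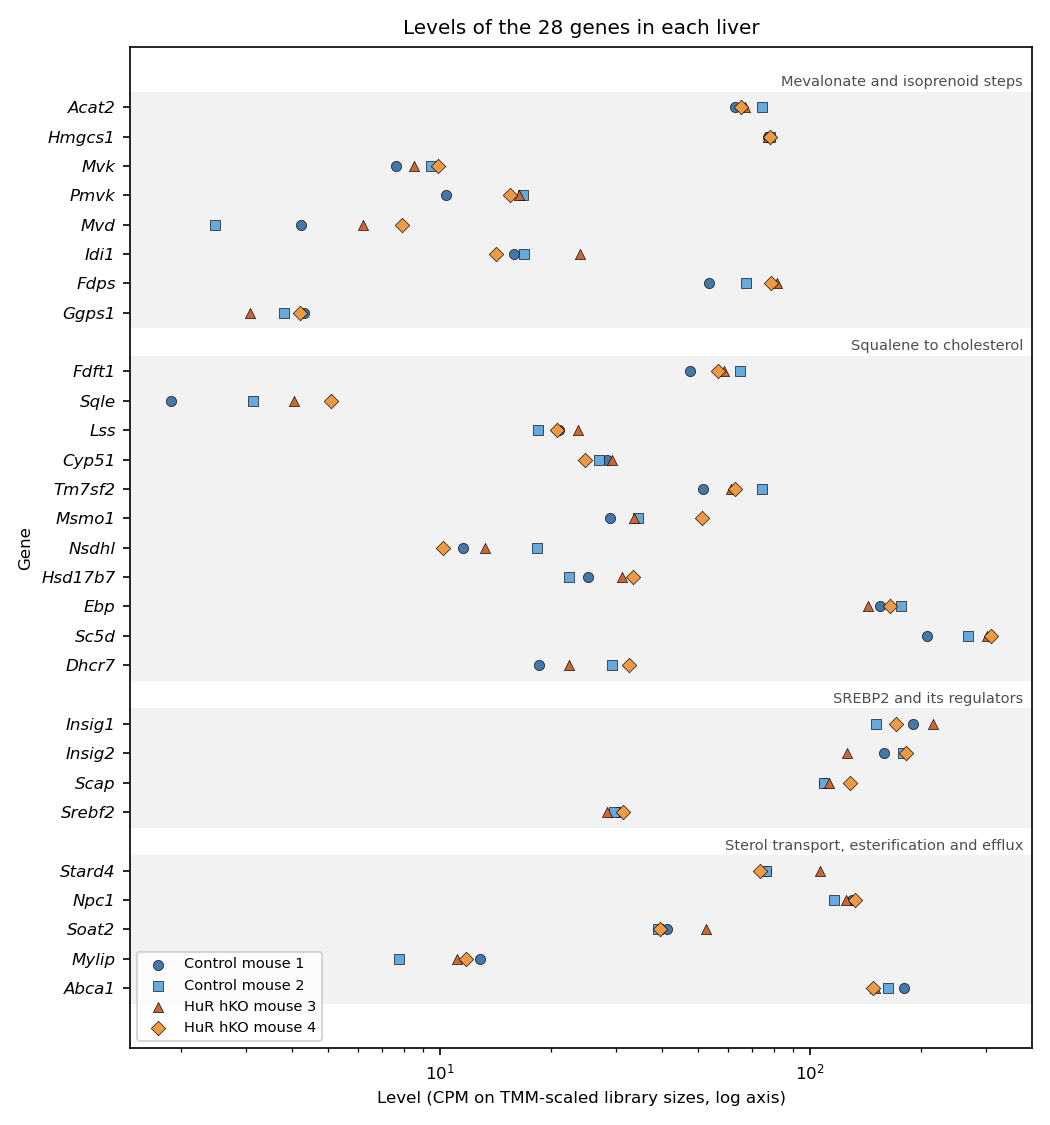
Level of each of the 28 genes in each liver, in CPM on TMM-scaled library sizes on a log axis, with genes in rows by role and 1 point per mouse. Mvd and Sqle had both points labelled HuR hKO to the right of both Control points at levels under 8 CPM, while most other rows had the groups intermixed.

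Both livers of the HuR hKO label lay above both Control livers for 6 genes (Mvd, Fdps, Sqle, Hsd17b7, Sc5d and Scap), where 19.3% of all genes tested did. Both lay below for 1 gene (Abca1), where 18.8% of all genes tested did. The groups overlapped for the other 21 genes. With 2 mice per group, the smallest p that an exact permutation test of a single value can give is 0.333, and edgeR's p-values draw on a spread shared across genes.

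The mevalonate and isoprenoid steps held the gene with the largest fold change. Mvd encodes mevalonate diphosphate decarboxylase, which makes isopentenyl diphosphate, the building block of the pathway. Its counts were 56 and 33 in mice 1 and 2 and 89 and 149 in mice 3 and 4, and its CPM was 4.21, 2.46, 6.21 and 7.91 in mice 1 to 4. Mouse 2 was lowest and mouse 4 highest, and the groups did not overlap. The log2 fold change was 1.08 ± 0.30 (SE, n = 2 and 2; adjusted p = 0.435 by edgeR's quasi-likelihood test), and it stayed between 0.75 and 1.51 when 1 mouse was left out. Mvd lies at chr8:122433601-122443422, and the gene Gm20388 on the opposite strand spans all 9822 bases of it. Gm20388 had 276, 284, 263 and 122 counts in mice 1 to 4, so it was lowest in mouse 4, where Mvd was highest. Whether the counting used strand is not stated. With the counts of both genes added the log2 fold change was -0.33 (unadjusted p = 0.195, adjusted p = 0.792, edgeR's quasi-likelihood test), of opposite sign but not a clear difference. All Gm20388 counts went into this sum, and the part of them that came from Mvd was not determined.

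Fdps encodes farnesyl diphosphate synthase, which makes the last intermediate shared by sterols and prenyl groups. Its CPM was 53.5 and 67.2 in mice 1 and 2 and 81.6 and 78.5 in mice 3 and 4. Both values of the HuR hKO label exceeded both Control values, and the gap between the Control mice was wider than that between mice 3 and 4. The log2 fold change was 0.41 ± 0.15 (SE; adjusted p = 0.574, edgeR), and 0.24 without mouse 1.

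The enzymes at the start of the pathway had overlapping groups. Hmgcs1, the cytosolic HMG-CoA synthase and a well-known SREBP2 target, had 77.1, 78.3, 77.1 and 78.1 CPM in mice 1 to 4. Relative to its level, this was the narrowest range of the 28 genes, and the log2 fold change was 0.00 ± 0.12 (SE). Acat2, the cytosolic acetoacetyl-CoA thiolase that opens the pathway, had 62.8, 74.5, 66.9 and 65.0 CPM, with mouse 2 highest and the groups overlapping. Its log2 fold change was -0.06 ± 0.14 (SE).

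Among the kinases, mouse 1 was lowest. Mvk, mevalonate kinase, had 7.60, 9.48, 8.51 and 9.93 CPM in mice 1 to 4. Pmvk, phosphomevalonate kinase, had 10.4 CPM in mouse 1 against 16.8, 16.4 and 15.4 CPM in mice 2, 3 and 4. In both genes mouse 2 lay among or above mice 3 and 4. Without mouse 1 the log2 fold changes of Mvk and Pmvk turned from 0.11 and 0.23 to -0.05 and -0.09.

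Idi1, the isomerase that turns isopentenyl diphosphate into its reactive partner, had 15.9, 16.9, 23.9 and 14.2 CPM in mice 1 to 4. Mouse 3 was highest and mouse 4 lowest, so the mice of the HuR hKO label bracketed the Control mice, and the log2 fold change of 0.21 ± 0.24 (SE) became -0.22 without mouse 3. Ggps1, which makes the geranylgeranyl groups attached to proteins, had 4.29, 3.81, 3.07 and 4.19 CPM, with a log2 fold change of -0.15 ± 0.28 (SE). Its groups overlapped as well. Of the 8 genes of these steps, 5 lay higher and 3 lower in the fit (median log2 fold change 0.16).

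From squalene onward, 7 of 11 genes lay higher and 4 lower in the fit (median log2 fold change 0.17). Sqle, squalene epoxidase, catalyses a slow step of the pathway and is a sensitive SREBP2 target. Its counts were 25 and 42 in mice 1 and 2 and 58 and 96 in mice 3 and 4, which gave 1.88, 3.14, 4.05 and 5.10 CPM. The groups did not overlap, although mouse 3 and mouse 2 lay closer to each other than mouse 2 and mouse 1. The log2 fold change was 0.87 ± 0.33 (SE; adjusted p = 0.591, edgeR), and 0.54 without mouse 1.

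Msmo1, Nsdhl and Hsd17b7 act together to strip methyl groups from lanosterol derivatives, and they differed in their order among the mice. Hsd17b7, the keto-reductase of the set, had 25.1, 22.3, 31.0 and 33.4 CPM in mice 1 to 4. Both mice of the HuR hKO label lay above both Control mice, with a log2 fold change of 0.44 ± 0.14 (SE; adjusted p = 0.511, edgeR) and the narrow range of 0.36 to 0.52 when 1 mouse was left out. Msmo1, the methylsterol oxidase, had 28.8, 34.3, 33.6 and 51.2 CPM, so mouse 4 stood above the rest and mouse 3 lay between the Control mice. Its log2 fold change was 0.43 ± 0.21 (SE; adjusted p = 0.684, edgeR), 0.68 without mouse 3 and 0.09 without mouse 4.

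Nsdhl, the decarboxylating dehydrogenase of the same set, had 11.6, 18.4, 13.2 and 10.2 CPM in mice 1 to 4. Mouse 2 was highest and mouse 4 lowest. The log2 fold change was -0.36 ± 0.24 (SE), the lowest of the 28 genes, and it ran from -0.67 without mouse 1 to 0.01 without mouse 2.

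Sc5d, the sterol desaturase that acts late in the pathway, had the highest CPM of the 28 genes, with 208.0 and 268.0 in mice 1 and 2 and 302.1 and 309.1 in mice 3 and 4. The groups did not overlap, and mouse 1 was well below the rest. The log2 fold change was 0.36 ± 0.16 (SE; adjusted p = 0.67, edgeR), 0.18 without mouse 1 and 0.56 without mouse 2. Dhcr7, the reductase that ends the branch through dehydrocholesterol, had 18.5, 29.3, 22.4 and 32.5 CPM, so each group held 1 low and 1 high mouse, and the log2 fold change was 0.21 ± 0.25 (SE).

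The remaining enzymes had overlapping groups. Fdft1, squalene synthase, had 47.4, 64.7, 58.5 and 56.4 CPM in mice 1 to 4, and Tm7sf2, a sterol reductase, had 51.5, 74.2, 61.3 and 62.8 CPM. In both genes the Control mice were the lowest and the highest of the 4, so mice 3 and 4 lay between them. Their log2 fold changes were 0.03 ± 0.17 and -0.02 ± 0.18 (SE). Fdft1 overlaps Ctsb, which is on the opposite strand and far more abundant, by 774 bases. Tm7sf2 overlaps Vps51 on the same strand by 532 bases, and Vps51 had 311, 257, 325 and 428 counts in mice 1 to 4. Ggps1, Cyp51 and Npc1 overlap Arid4b, Akap9 and Rmc1 on the opposite strand by 257, 166 and 967 bases.

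Lss, which closes the ring system to form lanosterol, had 21.1, 18.4, 23.7 and 20.8 CPM in mice 1 to 4. Cyp51, the lanosterol demethylase, had 28.4, 27.0, 29.2 and 24.7 CPM. Ebp, the sterol isomerase, had 155.0, 176.4, 143.6 and 164.6 CPM. The groups overlapped for all of Lss, Cyp51 and Ebp, with log2 fold changes of 0.17, -0.04 and -0.10. That of Lss ran from 0.06 without mouse 3 to 0.26 without mouse 4, and that of Ebp from -0.21 without mouse 1 to -0.01 without mouse 2.

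**Figure D2:**
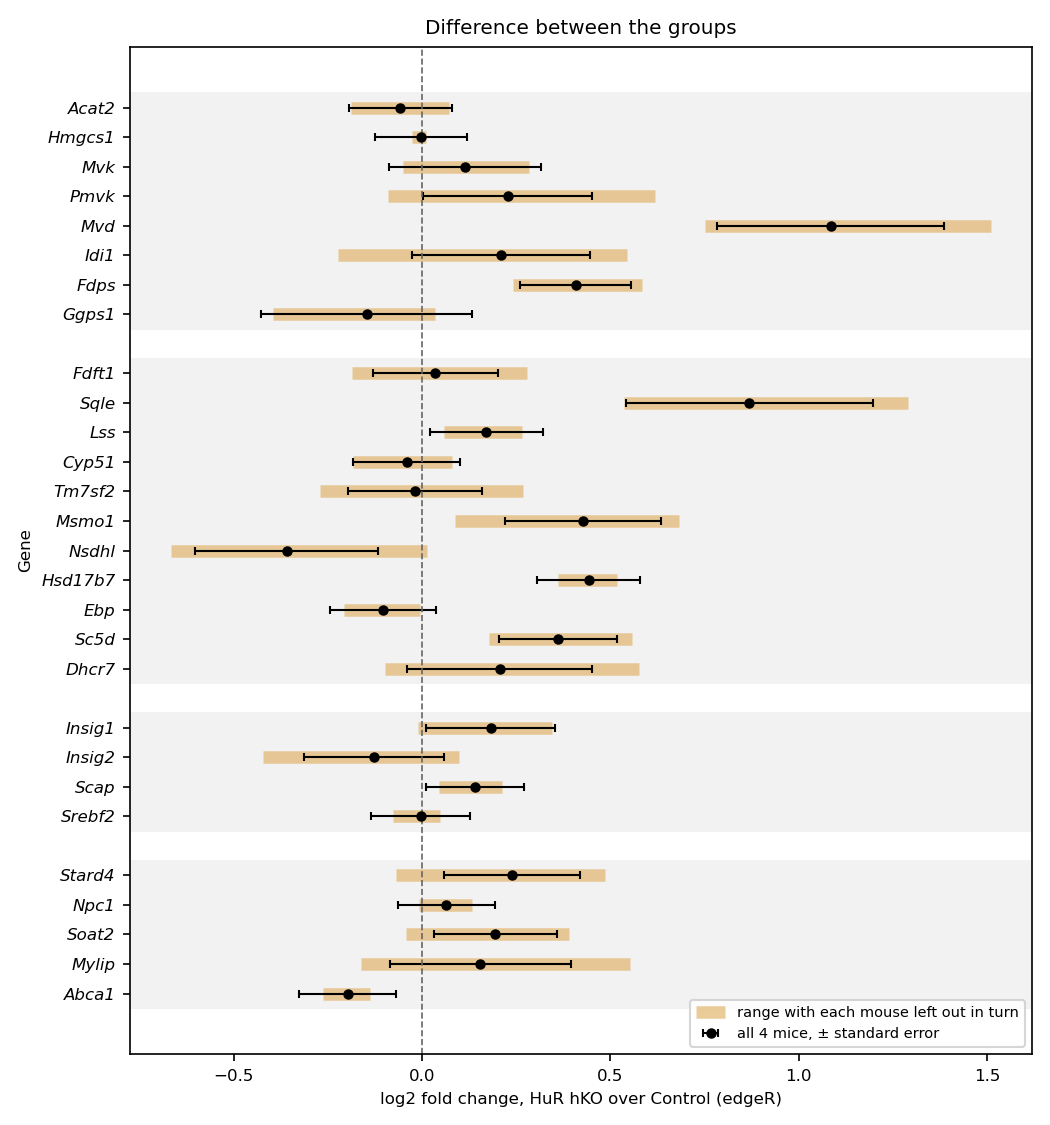
Log2 fold change of each of the 28 genes, libraries labelled HuR hKO over Control, from edgeR (black points with standard errors, 2 mice per group) and its range when each mouse was left out in turn (orange bars); the dashed line is no difference. Mvd (1.08) and Sqle (0.87) lay farthest to the right, and 18 of the 28 orange bars crossed the dashed line.

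Of the 4 genes of the SREBP2 machinery, 2 lay higher and 2 lower in the fit (median log2 fold change 0.07). Srebf2, which encodes SREBP2 itself and is also one of its targets, had 30.3, 29.6, 28.4 and 31.4 CPM in mice 1 to 4, a log2 fold change of 0.00 ± 0.13 (SE). Mice 3 and 4 lay on either side of the Control mice. Scap, the escort protein, had 109.5 and 109.2 CPM in mice 1 and 2 and 112.8 and 128.2 CPM in mice 3 and 4. The groups did not overlap, but mouse 3 was close to the Control mice, and the log2 fold change was 0.14 ± 0.13 (SE; adjusted p = 0.849, edgeR), and 0.05 without mouse 4.

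Insig1, the retention protein that SREBP2 induces, and Insig2, whose liver transcript is not driven by SREBP, differed in their order among the mice. Insig1 had 189.8, 150.9, 215.6 and 171.0 CPM in mice 1 to 4, and Insig2 had 159.0, 178.2, 125.9 and 182.5 CPM. Mouse 3 was highest for Insig1 and lowest for Insig2. The groups overlapped in both, with log2 fold changes of 0.18 ± 0.17 and -0.13 ± 0.19 (SE).

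Among the genes of sterol handling, 4 of 5 lay higher and 1 lower in the fit, and mouse 3 was highest for Stard4 and Soat2. Stard4, a soluble sterol carrier and SREBP2 target, had 76.0, 76.4, 106.7 and 73.4 CPM in mice 1 to 4. Soat2, which esterifies cholesterol for lipoproteins and stores in hepatocytes, had 41.2, 38.9, 52.4 and 39.3 CPM. In both, mouse 4 was level with the Control mice. Their log2 fold changes of 0.24 ± 0.18 and 0.19 ± 0.16 (SE) became -0.07 and -0.04 without mouse 3.

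Npc1, which exports cholesterol from lysosomes, had 129.8, 116.5, 125.0 and 132.6 CPM in mice 1 to 4, and its groups overlapped. Mylip and Abca1 are induced by LXR. Mylip, a ubiquitin ligase that limits sterol uptake, had 12.9, 7.77, 11.2 and 11.8 CPM, with mouse 2 alone below the rest. Abca1, the exporter that loads cholesterol onto apolipoprotein A-I, had 179.6 and 163.2 CPM in mice 1 and 2 and 150.5 and 148.5 CPM in mice 3 and 4. It was the 1 gene of the 28 with both values of the HuR hKO label below both Control values, and its log2 fold change was -0.20 ± 0.13 (SE; adjusted p = 0.768, edgeR). With no scaling for library size it was 0.12, where the median over all genes was 0.31. Without Mylip, Abca1 and Insig2, 17 of 25 genes lay higher in the fit, where 50.3% of all genes tested did. The median log2 fold change of the 25 genes was 0.17, and it ran from 0.05 without mouse 3 to 0.24 without mouse 2.

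For most of the 28 genes, as for most of all genes compared, the spread within a group exceeded the group difference. In 22 of the 28 genes (78.6%) the wider gap between the mice of a group exceeded the difference between the group means on the log2 scale, where this held for 74.4% of all genes compared. The exceptions were Mvd, Fdps, Sqle, Hsd17b7, Sc5d and Abca1. Mouse 1 had the lowest level of 10 genes, among them Sqle, Fdps, Sc5d, Pmvk and Dhcr7, and mouse 4 had the highest level of 11, among them Mvd, Sqle, Msmo1 and Sc5d. Mouse 2 was highest for 7 genes and mouse 3 for 7. Of all genes compared, 28.2% were lowest in mouse 1, and 26.7%, 21.9% and 22.3% were highest in mice 4, 2 and 3.

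The median over the 28 genes of the log2 ratio to mouse 1 was 0.06 for mouse 2, 0.19 for mouse 3 and 0.07 for mouse 4. Against mouse 2 it was 0.01 for mouse 3 and 0.07 for mouse 4. Between mouse 4 and mouse 3 it was 0.03. Without regard to sign, the median log2 difference was 0.22 between the Control mice and 0.19 between mice 3 and 4, and between mice of different groups it ran from 0.18 to 0.29. These ratios between pairs of mice were chosen after seeing the data.

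**Figure D3:**
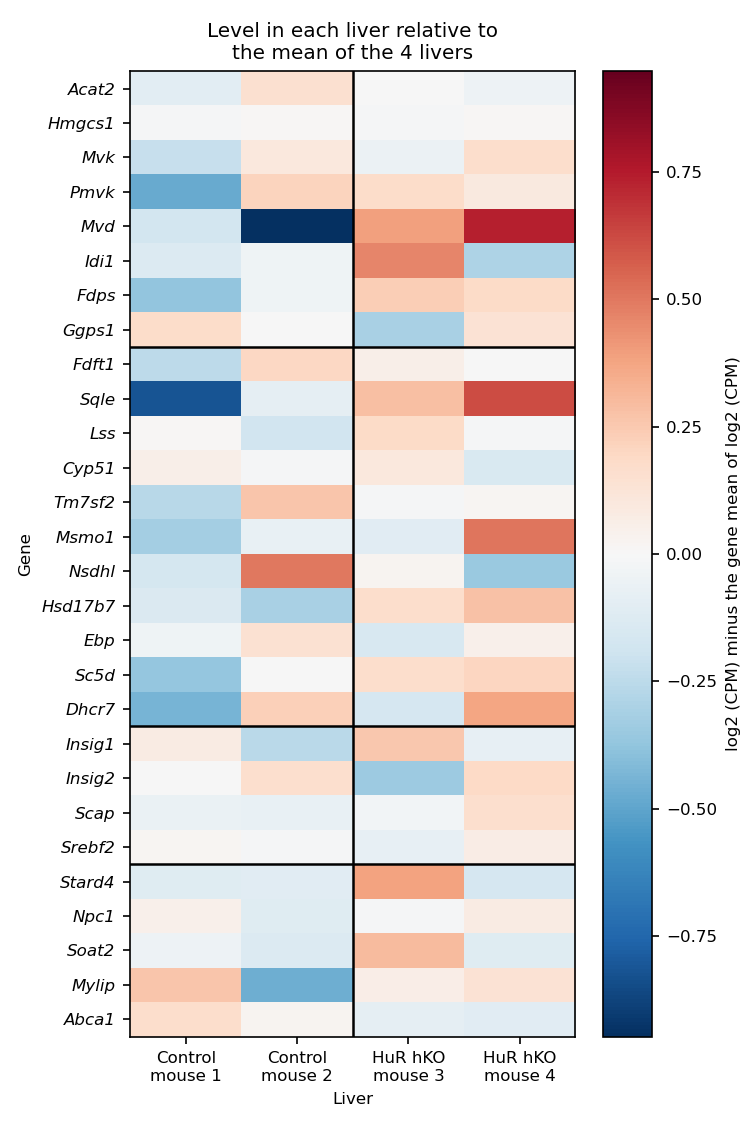
Log2 CPM of each of the 28 genes in each liver minus the mean of the 4 livers for that gene (colour scale; red is above the mean and blue below), with genes in rows by role. Mvd and Sqle show the strongest contrast between the label columns, and Stard4, Soat2 and Idi1 are red in mouse 3 and blue in mouse 4.

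Compared per length of transcript, the levels of the 28 genes spanned a 101-fold range. Ebp was highest at 91.7 ± 8.0 CPM per kb (SD over the 4 mice), and Insig1, Insig2, Sc5d, Fdps and Tm7sf2 followed at 67.4, 59.8, 56.8, 50.8 and 42.5 CPM per kb. The range of Ebp did not overlap that of Insig1, while each neighbouring pair from Insig1 to Tm7sf2 overlapped. Mvd, Sqle and Ggps1 were lowest, at 2.96, 1.28 and 0.905 CPM per kb, with overlapping ranges for each neighbouring pair. Thus the pair of genes with the largest fold changes in the main fit, Mvd and Sqle, were among the 3 least abundant. For Mvd this rank rests on its own counts, since its log2 fold change was -0.33 with the counts of Gm20388 added. Of the 27 neighbouring pairs in the order, 24 had ranges over the 4 mice that overlapped.

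**Figure D4:**
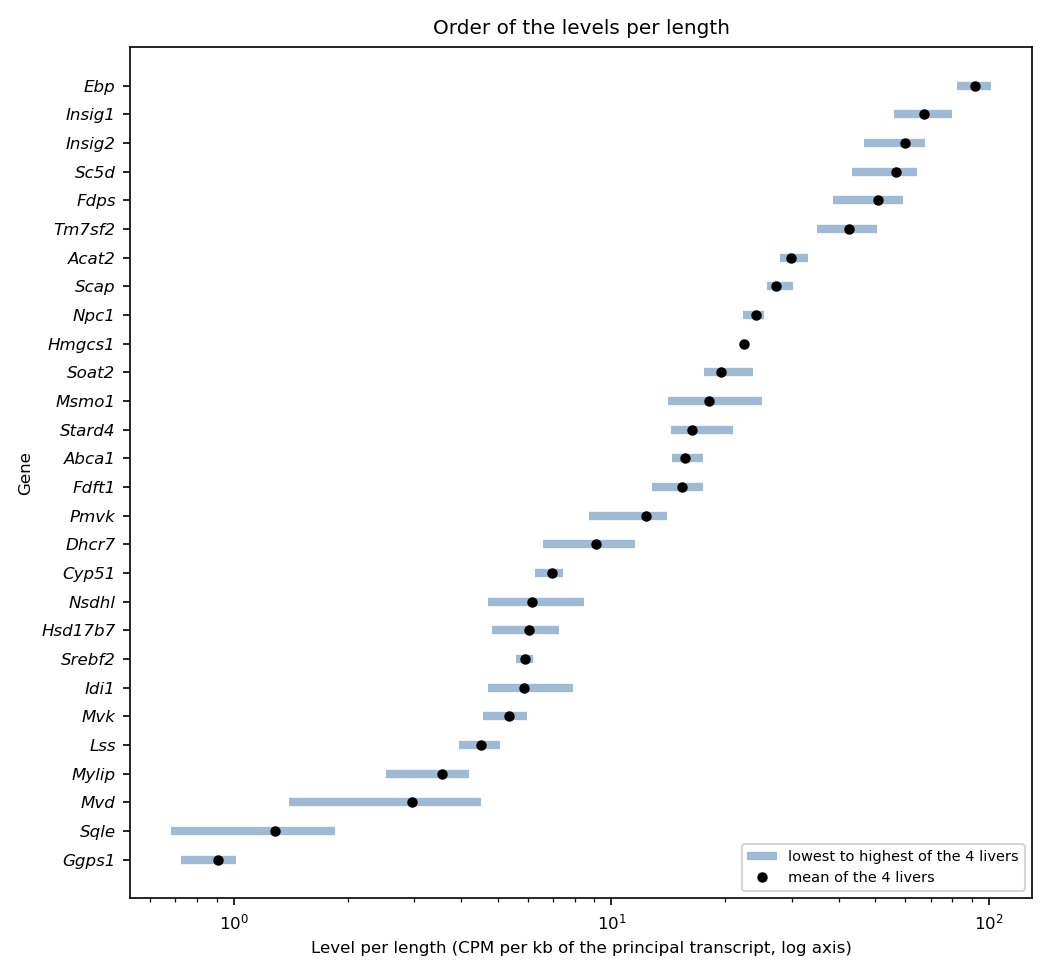
Mean level of each of the 28 genes over the 4 livers, in CPM per kb of the principal transcript on a log axis (points), with the lowest to highest liver (bars), ordered from highest to lowest. Ebp stands at the top at 91.7 CPM per kb and Ggps1 at the bottom at 0.905 CPM per kb.

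Other genes linked to SREBP2 or sterol metabolism, among them proteases of SREBP2, ubiquitin ligases and genes of sterol and acetyl-CoA metabolism, lay on both sides of no difference. Of 17 such genes, all tested, 7 lay higher and 10 lower in the fit (median log2 fold change -0.01), where 50.3% of all genes tested lay higher. At an unadjusted p under 0.05, 2 were higher and 0 lower, where 7.43% of all genes tested reached it in either direction. Tmem97, an SREBP2 target that binds NPC1, had 51.1 and 74.3 CPM in mice 1 and 2 and 84.3 and 88.9 CPM in mice 3 and 4, a log2 fold change of 0.47 ± 0.18 (SE; adjusted p = 0.611, edgeR). Rnf145, a ubiquitin ligase of the endoplasmic reticulum that acts on SCAP, had 30.2 and 31.2 CPM in mice 1 and 2 and 57.3 and 34.2 CPM in mice 3 and 4. As for Stard4 and Soat2, mouse 3 was far above the rest, and the log2 fold change was 0.57 ± 0.23 (SE; adjusted p = 0.619, edgeR).

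Among 9 LXR target genes, Abca1 and Mylip included, 7 lay higher and 2 lower in the fit, where 50.3% of all genes tested lay higher. Their median log2 fold change was 0.15, and 0 had an unadjusted p under 0.05, which 7.43% of all genes tested reached in either direction. The 12 lipogenic genes of SREBP1, some of them shared with LXR, had a median of 0.41 on the log2 scale, with 10 higher, 2 lower, and 5 higher at an unadjusted p under 0.05, where 50.3% of all genes tested were higher and 7.43% reached that p in either direction. Acly, ATP citrate lyase, which supplies acetyl-CoA for fatty acids and for cholesterol, had 152.7 and 155.4 CPM in mice 1 and 2 and 264.3 and 276.9 CPM in mice 3 and 4. Its log2 fold change was 0.81 ± 0.13 (SE; adjusted p = 0.103, edgeR), while Hmgcs1, which draws on the same acetyl-CoA, had 0.00 ± 0.12 (SE). Fasn, fatty acid synthase, had a log2 fold change of 0.85 ± 0.15 (SE; adjusted p = 0.137, edgeR), and Acaca, Elovl6 and Gpam had 0.46, 0.64 and 0.35. The difference between the lipogenic and the cholesterol genes was not tested.

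Markers of other liver cells were compared in the same fit, where 50.3% of all genes tested lay higher. All 6 endothelial markers lay higher (median log2 fold change 0.22), 3 of them with no overlap between the groups (19.3% of all genes tested) and 0 at an unadjusted p under 0.05 (7.43% of all genes in either direction), with summed levels of 158.0 to 179.0 CPM in the Control mice and 186.2 to 205.6 CPM in mice 3 and 4. Of 7 stellate markers, 6 lay higher, 3 of them with no overlap (19.3% of all genes), summing to 185.4 and 188.1 CPM in the Control mice and 200.8 and 255.2 CPM in mice 3 and 4, and 2 had an unadjusted p under 0.05 (7.43% of all genes), Col1a1 and Col3a1, with log2 fold changes of 0.63 and 0.59. Of 8 Kupffer cell and macrophage markers, 5 lay higher and 3 lower, 3 of them higher with no overlap (19.3% of all genes) and 0 at an unadjusted p under 0.05, summing to 167.0 and 173.0 CPM in the Control mice and 195.1 and 179.7 CPM in mice 3 and 4. Of 7 T, NK and B cell markers, 3 passed the filter on low counts, with a median log2 fold change of 0.96. Of these 3, 2 were higher with no overlap (19.3% of all genes), 1 lay lower and 0 had an unadjusted p under 0.05. The 7 markers summed to 2.8 and 5.7 CPM in the Control mice and 6 and 5.6 CPM in mice 3 and 4. The part of these cell markers in the levels of the cholesterol genes was not tested. Of 11 clock genes tested, 5 were higher and 6 lower, where 50.3% of all genes tested were higher. Of 8 fasting genes 7 were higher, among them Fgf21 with 13, 24, 47 and 51 counts in mice 1 to 4, and 1 was lower.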

How the data were processed

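Total liver RNA of 4 mice was sequenced. The values deposited by the authors are read counts per gene, whole numbers in 1 table, not normalized. The submitters' processing notes name RSEM and the build GRCm38, and other steps are not given in the sources used here; RSEM counts are estimates, so the deposited values may be rounded. Whether the counting used strand is not stated.

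Genes were matched by symbol, and 46005 of the 46603 identifiers carried one. Gene positions came from the GENCODE annotation of GRCm38. Genes passing edgeR's filter (minimum count 10, minimum total 15) were scaled by TMM and tested with edgeR 4.0.16 (quasi-likelihood test, R 4.3.3), 2 mice against 2, with Benjamini-Hochberg adjustment over 13001 genes. Standard errors are the log2 fold change divided by the square root of the F statistic. The labels name each library as a separate mouse. The 28 genes and the other lists were chosen with earlier results of these data known. All 28 genes are named, and of the other lists only genes with an unadjusted p under 0.05, or the most abundant defining genes, except Krt19, Krt7, Epcam and Sox9, which were named after their values were seen. Alternatives used limma 3.58.1, DESeq2 1.42.0, other scalings, other filters and each mouse left out. Levels per length divide CPM by the length of the principal transcript. Motifs were searched with python 3.11.15.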

Additional observations from a re-analysis of the deposited data

How the results depend on the processing

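The fits were repeated under 13 alternatives, of which 9 changed the scaling, the filter or the test and 4 left out a mouse; the sum of Mvd and Gm20388 and the ratios between pairs of mice were chosen after seeing the data. With no scaling for library size, the median over all genes was 0.31 and that over the 28 genes 0.47 (0.47 without Mylip, Abca1 and Insig2). At that setting 1 of the 28 genes, Mvd, had an adjusted p under 0.05 (0.0054, edgeR's quasi-likelihood test), where 155 of all 13001 genes tested did. The log2 fold changes of Acat2 (0.25), Hmgcs1 (0.31), Ggps1 (0.19), Cyp51 (0.26), Tm7sf2 (0.30), Ebp (0.22), Insig2 (0.22), Srebf2 (0.32) and Abca1 (0.12) turned positive. This setting leaves the deeper library of mouse 4 uncorrected. Tm7sf2 was 0.004 with limma-voom, and Mvd was -0.33 with the counts of Gm20388 added. With DESeq2's Wald test 1 gene (Mvd, and no longer Sqle) passed the study's threshold. Each mouse left out in turn, with 1 group then reduced to a lone library assumed to vary like the others, gave 2 to 7 genes higher and 0 to 1 lower (Nsdhl, without mouse 1) at an unadjusted p under 0.05, 0 to 2 past the study's threshold upward, 0 at an adjusted p under 0.05, 15 to 20 with a higher fitted level, and medians of 0.0533 to 0.15 (0.0485 to 0.24 without Mylip, Abca1 and Insig2). The cause of these shifts was not tested.

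Left-out mice turned the direction of 18 genes. Their log2 fold changes ran from -0.19 to 0.0717 for Acat2, -0.0261 to 0.0103 for Hmgcs1, -0.0498 to 0.28 for Mvk, -0.0911 to 0.62 for Pmvk, -0.22 to 0.54 for Idi1, -0.40 to 0.034 for Ggps1, -0.18 to 0.28 for Fdft1, -0.18 to 0.0785 for Cyp51, -0.27 to 0.27 for Tm7sf2, -0.67 to 0.0126 for Nsdhl, -0.10 to 0.58 for Dhcr7, -0.0114 to 0.34 for Insig1, -0.42 to 0.10 for Insig2, -0.0777 to 0.0485 for Srebf2, -0.0704 to 0.49 for Stard4, -0.0092 to 0.13 for Npc1, -0.0421 to 0.39 for Soat2 and -0.16 to 0.55 for Mylip. Mvd, Fdps, Sqle, Lss, Msmo1, Hsd17b7, Ebp, Sc5d, Scap and Abca1 kept their direction in these 4 fits. No paired analysis was possible because the mice of the groups share no numbers.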
